A study of Homo sapiens with 12 samples.

Results

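The genes described here are 8 human transporters of ions, water and organic osmolytes, namely SLC12A2, ATP1B1, CFTR, SLC4A4, SLC5A3, SLC6A6, AQP3 and CNNM4, out of 57736 genes counted. They were found by their gene names in the count tables, and they were chosen by measured values, since earlier results on the same libraries were known when the set was drawn up. Their levels, their fold changes with treatment and their differences between cell lines are therefore given as a description with no test. HepG2, a liver cancer line, and Ls174, a colon cancer line, both human, were cultured in DMEM with serum and kept for 24 h with or without an extract of the red macroalga Hypnea musciformis (HME). The 4 groups were HepG2 control, HepG2 HME, Ls174 control and Ls174 HME, with 3 biological replicates each. According to the study, both lines carry wild-type alleles of the transcription factor p53. The treated groups received HME at 0.7 mg/ml according to the sample labels. The methods of the study give a slightly higher concentration. Each group is 1 established cancer line, so that none of them stands for a normal liver or colon epithelium.

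Epithelial cells move salt and water by dividing the work between membranes. The sodium-potassium pump keeps sodium inside the cell low, a sodium-potassium-chloride cotransporter uses that gradient to load the cell with chloride, and chloride channels on the opposite side let it out, with water following through aquaporins. When the medium becomes more concentrated, many cells take up organic osmolytes such as myo-inositol and taurine through sodium-coupled carriers, whose genes are classical targets of the transcription factor NFAT5, also called TonEBP.

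The libraries held between 1790841 and 3656662 counts. Reads of this 3′ mRNA method come from transcript ends and do not accumulate with transcript length, so that normalized counts (CPM, counts relative to library size after TMM scaling) can be compared between genes as well as between libraries. A total of 3 counts was taken as the floor of the measurement, which over the 3 libraries of a group corresponds to between 0.327 and 0.427 CPM and covers counting error only. The summed level of 10 liver markers was between 18601 and 22544 CPM in untreated and between 13458 and 14827 CPM in HME-treated HepG2 cells, without overlap, and between 23.1 and 186 CPM in the Ls174 libraries. The summed level of 10 colon epithelium markers was between 383 and 482 CPM in Ls174 and between 72.9 and 222.1 CPM in HepG2 cells, with the mucin gene MUC2 and CEACAM5 at 0 counts in both HepG2 groups and KRT20 at 0 in untreated Ls174 cells. The part of this lower liver marker level in the HepG2 differences was not tested. A control library stood apart in each line. HepG2 control 2 differed from the other controls by a mean of 0.937 and 0.922 on the log2 CPM scale, against 0.450 between controls 1 and 3, and Ls174 control 1 differed by 0.910 and 0.922, against 0.296 between controls 2 and 3. Where leaving out the library that stood apart changed the call of a named list gene, and for the fitted transporter genes where they turn on it, the value without it is given.

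Of the 8 genes, 6 passed the filter on low counts in each comparison, while CFTR and SLC4A4 did not. At an adjusted p under 0.05 (edgeR, Benjamini-Hochberg over all genes tested), 3 of the 8 were higher with HME in HepG2 cells and none lower, beside 2.77% of all tested genes higher and 0.538% lower. In Ls174 cells 2 were lower with HME and none higher at this threshold, beside 0.866% of all genes lower and 0.318% higher. At the thresholds of the study, which are a log2 fold change beyond 0.58 with an unadjusted p under 0.05, 4 were higher in HepG2 cells and none lower, beside 11.3% of all genes higher and 10.9% lower. In Ls174 cells 1 was higher and 3 were lower at these thresholds, beside 4.11% of all genes higher and 7.85% lower. The HME and control libraries did not overlap for 4 of the genes in HepG2 cells, beside 30.8% of all genes, and for 4 in Ls174 cells, beside 23.8%. Since the genes were chosen with these comparisons known, nothing is read from these counts. The 6 genes had a median log2 fold change of 1.74 for HepG2 and of -0.83 for Ls174, beside -0.04 and -0.003 over all tested genes.

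**Figure D1:**
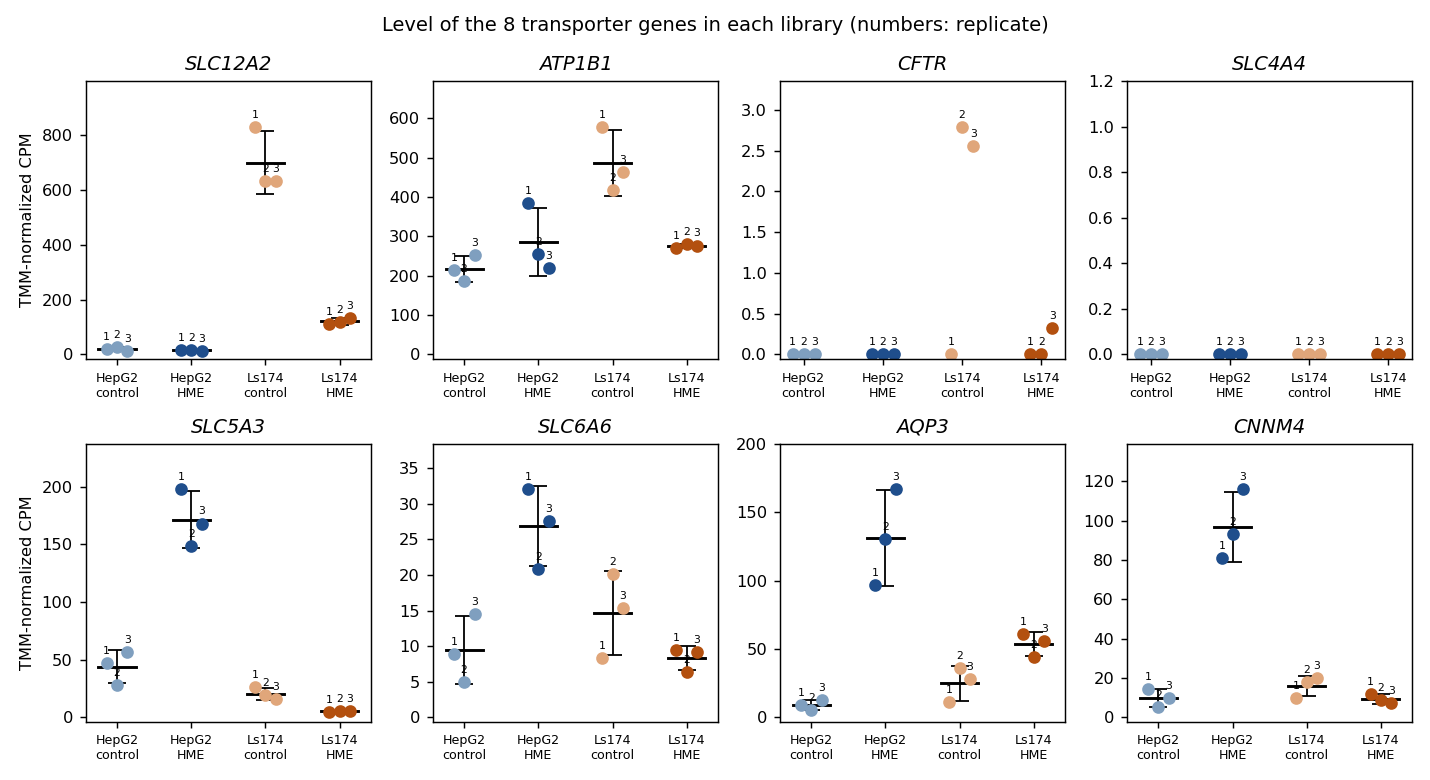
TMM-normalized CPM (y axis, linear and scaled for each gene) of the 8 transporter genes in the 12 libraries (points, with the replicate number), with lines and bars for the mean ± SD of 3 libraries, which are left out for CFTR and SLC4A4. SLC5A3, SLC6A6, AQP3 and CNNM4 lie highest in HME-treated HepG2 cells, SLC12A2 and ATP1B1 in untreated Ls174 cells, and SLC4A4 is at 0 in every library.

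SLC12A2 encodes NKCC1, the cotransporter that brings sodium, potassium and chloride into the cell together and supplies chloride for secretion. It reached the highest level of any gene of the set, and that level was found in untreated Ls174 cells. In untreated Ls174 cells it stood at 829, 630 and 632 CPM in replicates 1, 2 and 3, and with HME at 110, 119 and 133 CPM. The Ls174 groups did not overlap, and the mean was 697 ± 114 CPM without HME and 121 ± 11.8 CPM with it (SD, n = 3), a log2 fold change of -2.54 ± 0.22 (SE) or 5.82-fold lower. In RNA from whole cultures, fewer cells that express a gene and less of its RNA per cell cannot be told apart. In HepG2 cells the gene was at 21.5, 26.8 and 14.1 CPM without HME and at 15.4, 17.3 and 13.8 CPM with it. These groups overlapped, with a log2 fold change of -0.41 ± 0.37 that moved to -0.14 when control 2 was left out. In order of level, Ls174 control, Ls174 HME and the HepG2 groups were separate, whereas the 2 HepG2 groups were not. Even with HME, every Ls174 library lay above every HepG2 library. Nearly all of its counts, 96.5%, came from a region of the terminal exon at chr5:127522188-127525577 (GRCh37, plus strand), 89.9% of whose bases are annotated as untranslated.

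ATP1B1 encodes the beta-1 subunit of the sodium-potassium pump, which is needed to bring the catalytic alpha subunit to the membrane. Untreated Ls174 cells held 579, 418 and 464 CPM and HME-treated ones 270, 281 and 277 CPM. All treated Ls174 libraries lay below all untreated ones, with means of 276 ± 5.58 and 487 ± 83.1 CPM and a log2 fold change of -0.83 ± 0.20, or -0.67 without control 1. HepG2 cells held 215, 187 and 252 CPM without HME and 384, 255 and 219 CPM with HME. The HepG2 groups overlapped, and their log2 fold change was 0.41 ± 0.33. The level in HME-treated Ls174 cells thus lay within the range of HME-treated HepG2 cells, while untreated Ls174 cells were above all other groups. The counted region, chr1:169100794-169102157, lies wholly in the 3′ untranslated region and overlaps exons of NME7 on the opposite strand, and how the counting treated strand is not given in the sources used here. NME7 itself was measured at a mean of 11.3 ± 2.07 CPM in untreated and 14.1 ± 1.79 CPM in treated Ls174 cells.

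CFTR encodes the chloride channel of the apical membrane that is mutated in cystic fibrosis, and SLC4A4 encodes the sodium-bicarbonate cotransporter NBCe1. CFTR had 0, 9 and 10 counts in untreated Ls174 cells, 0, 0 and 1 in treated ones and 0 in all 6 HepG2 libraries. Pooled over the 3 libraries of a group this was 19 counts against 1, a ratio of 17.8. Its exact 95% interval, 2.84 to 741, covers counting error only and leaves out the spread between replicates. Control 1, with 0 counts, overlapped the treated libraries. The 0 counts in HepG2 cells allow a level of up to 0.385 CPM without and 0.427 CPM with HME. SLC4A4 had 0 counts in all 12 libraries, over which 0 allows up to 0.0921 CPM. Neither gene was fitted in any comparison.

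SLC5A3 encodes SMIT1, the sodium-coupled carrier of myo-inositol. With all libraries kept, it was the gene of the set whose groups separated in opposite directions in the 2 lines. HepG2 cells held it at 46.8, 28.0 and 57.0 CPM without HME and at 198, 149 and 168 CPM with it. In Ls174 cells SLC5A3 was at 26.1, 19.6 and 15.9 CPM without HME and at 4.74, 4.98 and 5.59 CPM with it. Every treated HepG2 library lay above every control, and every treated Ls174 library below every control. The means were 43.9 ± 14.7 and 172 ± 24.7 CPM in untreated and treated HepG2 cells, a log2 fold change of 1.98 ± 0.34 or 3.95-fold, and 20.5 ± 5.16 and 5.10 ± 0.438 CPM in Ls174 cells, a log2 fold change of -1.99 ± 0.34 or 3.99-fold lower. The 4 groups did not overlap with their neighbours in the order HepG2 HME, HepG2 control, Ls174 control and Ls174 HME. Leaving out the library that stood apart gave 1.80 in HepG2 and -1.77 in Ls174 cells.

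The SLC5A3 counts came from 1 region, chr21:35469655-35478756 (plus strand), of which 97.8% is annotated as untranslated sequence of its last exon. The gene is listed under 2 identifiers with the same counts, of which 1 was used. It lies inside MRPS6, a gene for a mitochondrial ribosomal protein on the same strand, 2 small exons of which fall in that region, so that reads of the 2 genes cannot be fully told apart there. In RefSeq (GRCh38.p14) both genes also have the same start site, and their promoter windows share all 300 bases. MRPS6, counted at its own 3′ end, was at 25.8, 19.3 and 41.6 CPM in untreated and 123, 70.0 and 69.7 CPM in treated HepG2 cells. Its treated HepG2 libraries lay above the controls, with a log2 fold change of 1.61 ± 0.39 and an adjusted p of 0.0545 (edgeR). In Ls174 cells MRPS6 stood at 78.0 ± 6.80 CPM without and 76.1 ± 2.38 CPM with HME (log2 fold change -0.04 ± 0.18, adjusted p = 0.937 by edgeR), beside the 3.99-fold lower level of SLC5A3. The part of MRPS6 reads in the SLC5A3 values was not tested.

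SLC6A6 encodes TauT, the carrier of taurine and beta-alanine. It was at 8.87, 4.98 and 14.5 CPM in untreated and 32.1, 20.9 and 27.6 CPM in treated HepG2 cells. The treated libraries lay above the controls, with means of 26.8 ± 5.64 and 9.47 ± 4.81 CPM and a log2 fold change of 1.50 ± 0.41, or 1.28 without control 2. SLC6A6 in Ls174 cells was at 8.36, 20.2 and 15.4 CPM without HME and at 9.47, 6.40 and 9.20 CPM with it. Here the groups overlapped because of control 1, and the log2 fold change was -0.82 ± 0.39, or -1.07 without that library. In order of level, HME-treated HepG2 cells stood above untreated Ls174 cells, while untreated Ls174, untreated HepG2 and HME-treated Ls174 cells overlapped with their neighbours.

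SLC6A6 was also the gene of the set with at least 10% of its counts in a second 3′ region, while CFTR had 1 of 20 counts in another region and SLC12A2, ATP1B1 and AQP3 had under 4% of theirs outside the main one. Of its counts, 82.0% came from the terminal exon at chr3:14526375-14531054 (plus strand), and 14.9% from chr3:14489329-14489893. The latter region begins within a longer form of an upstream coding exon, where 1 annotated transcript ends at position 14489696 with its own 3′ untranslated sequence. A search for AATAAA and ATTAAA, the common polyadenylation signals, on the transcript strand in the last 50 bases before each annotated end found AATAAA 27 bases before the distal end at 14530857 and neither hexamer before the upstream end. The terminal region also holds annotated ends at 14530815 and 14526411, before which neither hexamer was found, and the counts do not tell which of the 3 ends its reads came from. The distal signal is shown because it was the hexamer found in the region that held most SLC6A6 counts, with its letters in capitals.
SLC6A6 distal end, chr3:14530819-14530848 (GRCh37): ttataacatgaaAATAAAcatttccttttt

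The share of SLC6A6 counts in the distal region, a measure that did not enter the choice of genes, was 78.8% and 77.8% in HepG2 controls 1 and 3 and 72.8%, 72.9% and 60.9% in HME-treated HepG2 cells. HepG2 control 2 held 8 counts of the gene and was left out under the minimum of 10 counts. In Ls174 cells the share was 100%, 93.8% and 93.3% without HME and 96.2%, 88.9% and 89.3% with it. All HepG2 libraries therefore lay below all Ls174 libraries, with means of 72.6 ± 7.12% (SD, n = 5) and 93.6 ± 4.21% (SD, n = 6), a difference of -20.95 percentage points (HepG2 minus Ls174, exact permutation test, two-sided, p = 0.00216, the smallest that this design allows). The share was lower with HME than without in both lines, with differences of -9.42 percentage points in HepG2 and -4.28 in Ls174 cells and a mean of -6.85 (exact permutation test within lines, two-sided, p = 0.045). Leaving out a single library raised that p to between 0.05 and 0.163 in 8 of 11 cases, with 0.07 when Ls174 control 1 was left out. No other gene of the set was examined in this way, so that no adjustment over genes was needed. The p values of both comparisons were not adjusted for each other. The test between lines exchanged libraries without regard to treatment. The distal region overlaps exons of GRIP2 on the opposite strand, which had 0 counts of its own in Ls174 cells and 7 and 2 in untreated and treated HepG2 cells.

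**Figure D2:**
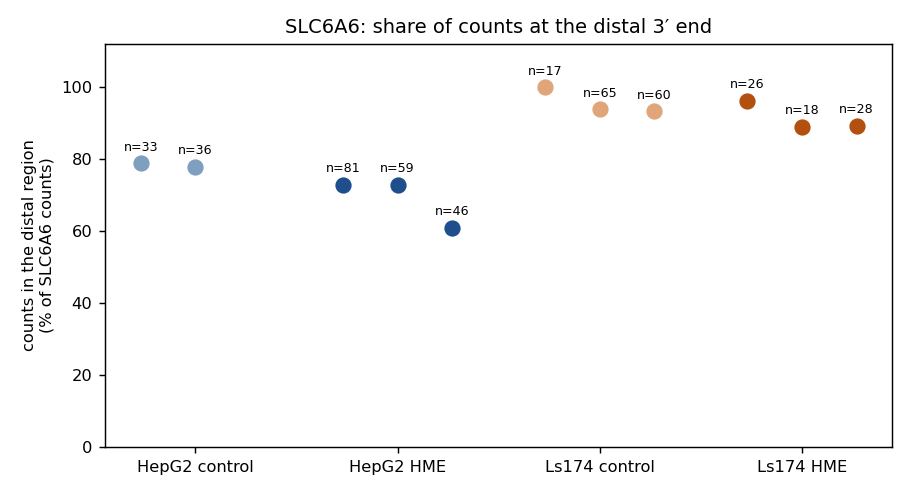
Share of the SLC6A6 counts of a library that fell in the distal 3′ region (y axis, percent), for the 11 libraries with at least 10 counts of the gene (points, n = counts of the gene in that library). The HepG2 libraries sit between 60.9% and 78.8%, all below the Ls174 libraries, and the counts behind each point range from 17 to 81.

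AQP3 encodes an aquaglyceroporin, a channel for water and glycerol found on the basolateral membrane of epithelial cells. It had the largest fold change with HME among the 6 genes that could be fitted. In HepG2 cells it stood at 8.87, 4.98 and 12.5 CPM without HME and at 96.6, 130.4 and 167 CPM with it. The groups were far apart, with means of 8.79 ± 3.77 and 131 ± 35.2 CPM and a log2 fold change of 3.89 ± 0.41, or 14.9-fold, which was 3.69 without control 2. Ls174 cells held AQP3 at 10.8, 35.7 and 27.9 CPM without and 60.8, 44.1 and 55.5 CPM with HME. These groups did not overlap either, and AQP3 was the 1 gene of the set that was higher with HME in both lines, with a log2 fold change of 1.08 ± 0.37 in Ls174 cells, or 0.76 without control 1. Its counts came almost entirely (99.9%) from chr9:33440955-33442040 (minus strand), 76.7% of which is annotated as untranslated.

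CNNM4 encodes a protein of the basolateral membrane that takes part in the extrusion of magnesium from intestinal epithelium. HepG2 cells held it at 14.3, 4.98 and 9.70 CPM without HME and at 81.1, 93.0 and 116 CPM with HME. The groups were separate, with means of 9.64 ± 4.63 and 96.7 ± 17.7 CPM and a log2 fold change of 3.30 ± 0.40, or 9.85-fold, and 3.06 without control 2. Ls174 cells held CNNM4 at 9.84, 17.7 and 19.7 CPM without and 12.02, 8.53 and 7.23 CPM with HME. Treated and untreated Ls174 libraries overlapped, with a log2 fold change of -0.79 ± 0.37, or -1.01 without control 1. All CNNM4 counts came from chr2:97475170-97477825 (plus strand), 88.9% of which is untranslated sequence.

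**Figure D3:**
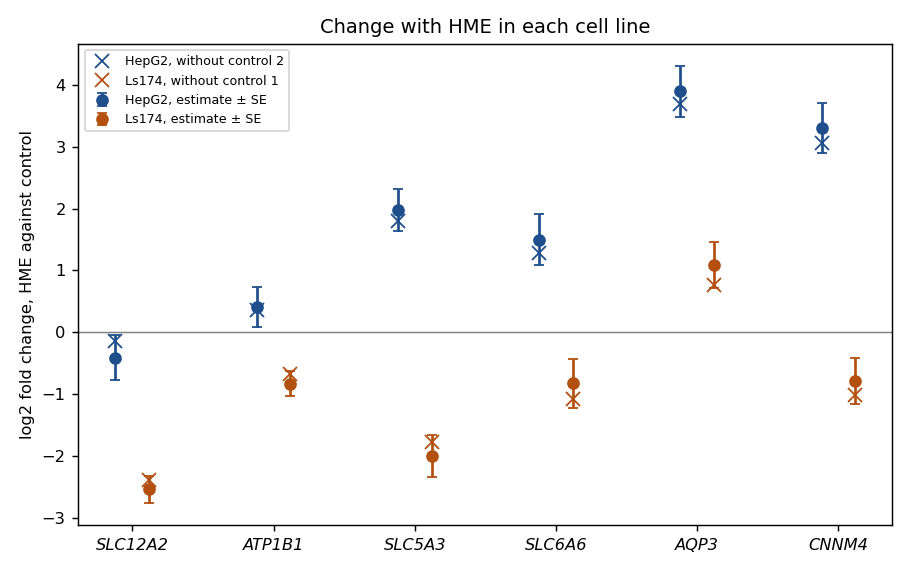
Log2 fold change of HME-treated against control cells (y axis) for the 6 genes that passed the filter, in HepG2 and in Ls174 cells. Circles with bars are estimates ± SE from 3 against 3 libraries, and crosses are the estimates without the control library that stood apart, which keep the direction of the full estimate for each gene.

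The change with HME was more positive in HepG2 than in Ls174 cells for all 6 genes that could be fitted. The difference between the lines in log2 fold change was 4.05 ± 0.55 for CNNM4, 3.94 ± 0.45 for SLC5A3, 2.77 ± 0.58 for AQP3, 2.29 ± 0.59 for SLC6A6, 2.12 ± 0.40 for SLC12A2 and 1.21 ± 0.39 for ATP1B1. For SLC12A2 it came from a lower level in treated Ls174 cells and for AQP3 from a higher level in both lines, larger in HepG2. The first 3 and SLC12A2 were called at an adjusted p under 0.05, beside 0.644% of all 13040 genes, and all 6 at the study's thresholds, beside 7.42% of all genes that were more positive in HepG2 cells and 5.75% that were more negative. The median over all genes was -0.04. The direction was known when the genes were chosen.

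Without HME, the lines already differed. SLC12A2 was 33.6-fold higher in Ls174 than in HepG2 cells, ATP1B1 2.23-fold and AQP3 2.79-fold, while SLC5A3 was 2.17-fold higher in HepG2 cells. SLC6A6 and CNNM4 had log2 differences of -0.62 ± 0.42 and -0.67 ± 0.38 (HepG2 minus Ls174), and their control libraries overlapped. AQP3 controls overlapped between the lines as well, because of Ls174 control 1. In all, 4 of the 8 genes were called (3 higher in Ls174 and 1 in HepG2), beside 35.5% of all genes. The control libraries of 3 did not overlap, beside 42.6%. With genes chosen by measured values, nothing is read from these counts either.

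Leaving out the control library that stood apart left 3 of the 8 genes called in HepG2 cells, beside 7.74% of all genes. It raised the number in Ls174 cells from 2 to 6, beside 8.39% of all genes. Of these 6, 1 was higher (AQP3) and 5 were lower. The genes were chosen with the comparisons known, so that nothing is read from these calls. In HepG2 cells, control 2 had the lowest level of all controls for ATP1B1, SLC5A3, SLC6A6, AQP3 and CNNM4 and the highest for SLC12A2. In Ls174 cells, control 1 had the highest level of the controls for SLC12A2, ATP1B1 and SLC5A3 and the lowest for SLC6A6, AQP3 and CNNM4.

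The promoter windows of the genes that were higher with HME in HepG2 cells, and of SLC12A2, are shown because these genes moved together within a line or stood in contrast to each other. RefSeq (GRCh38.p14) start sites were matched for 7 of the 8 genes, with 5 entries for SLC4A4 and none for SLC6A6. Each sequence covers the 250 bases before the start site, from 5′ to 3′ on the strand of the gene. Capitals mark matches, on either strand, to the GC box with the letters GGGCGG, the promoter element with the letters TATAAA, or the cyclic AMP response element (CRE) with the letters TGACGTCA. Neighbouring or overlapping matches run together.
SLC12A2, chr5:128083516-128083765 (plus strand): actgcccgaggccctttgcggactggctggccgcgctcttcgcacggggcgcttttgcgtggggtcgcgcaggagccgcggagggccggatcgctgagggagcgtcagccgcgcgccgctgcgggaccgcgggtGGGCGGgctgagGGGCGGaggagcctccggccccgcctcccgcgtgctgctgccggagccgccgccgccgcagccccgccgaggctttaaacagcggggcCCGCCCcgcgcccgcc
SLC5A3, chr21:34073328-34073577 (plus strand): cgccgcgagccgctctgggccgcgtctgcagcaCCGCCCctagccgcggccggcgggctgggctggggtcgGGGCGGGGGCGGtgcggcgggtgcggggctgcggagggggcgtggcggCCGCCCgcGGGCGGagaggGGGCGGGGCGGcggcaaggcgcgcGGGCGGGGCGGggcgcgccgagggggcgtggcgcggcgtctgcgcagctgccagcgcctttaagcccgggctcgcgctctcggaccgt
AQP3, chr9:33447594-33447843 (minus strand): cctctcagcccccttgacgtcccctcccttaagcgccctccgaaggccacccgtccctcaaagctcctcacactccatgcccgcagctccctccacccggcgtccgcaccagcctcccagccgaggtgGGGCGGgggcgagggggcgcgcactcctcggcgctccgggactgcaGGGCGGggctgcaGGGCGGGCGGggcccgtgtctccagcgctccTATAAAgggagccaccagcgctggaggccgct
CNNM4, chr2:96760652-96760901 (plus strand): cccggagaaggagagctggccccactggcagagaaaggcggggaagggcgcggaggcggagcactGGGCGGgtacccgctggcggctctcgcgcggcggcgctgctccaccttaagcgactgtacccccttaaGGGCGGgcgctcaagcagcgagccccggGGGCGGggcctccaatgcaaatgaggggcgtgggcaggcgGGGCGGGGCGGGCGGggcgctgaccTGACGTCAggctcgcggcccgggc

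The G+C content of these 4 windows was 79.6% for SLC12A2, 84.8% for SLC5A3, 73.6% for AQP3 and 75.2% for CNNM4, beside a median of 58.0% over 35116 windows of the same length. They held 3, 9, 4 and 6 GC boxes, respectively. At least 1 GC box was found in 42.6% of all windows, over which the number per window was not counted. The ATP1B1 window, which is not shown, had 77.6% G+C and 2 GC boxes, and that of CFTR had 61.2% and no GC box. AQP3 had a TATAAA 32 bases before its start (10.7% of all windows hold that motif), and CNNM4 had a CRE 24 bases before its start (1.65% of all windows). The core of the NFAT5 site, TGGAAA, and the AP-1 site, TGANTCA, which occur in 18.0% and 6.57% of all windows, were not matched in the window of SLC12A2, ATP1B1, CFTR, SLC5A3, AQP3 or CNNM4, and each had 1 match among the 5 windows of SLC4A4. These letters were searched in 250 bases only, and nothing follows about binding by any factor.

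By the mean absolute difference of log2 CPM over the 12 libraries, after centring each gene within each line, the gene with the pattern most like AQP3 was PCK1, a gluconeogenic enzyme gene, at 0.252, beside a median of 1.32 over 13039 genes. For SLC6A6 it was PERP at 0.183 (median 0.717), for ATP1B1 POM121C at 0.126 (median 0.516) and for SLC5A3 RNF103 at 0.350 (median 0.995). For SLC12A2 it was a copy of the small nucleolar RNA snoU13, at 0.174 (median 0.895). Within the set, the closest pair was SLC5A3 and SLC6A6 at 0.404, and the most distant was SLC12A2 and AQP3 at 1.99. Both SLC5A3 and SLC6A6 had a closer gene outside the set, as given above. The changes with HME enter these distances and were known when the genes were chosen, so that nothing is read from the pairs.

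To place these genes among others of the same processes, 152 transport genes in 9 lists were examined, which were likewise drawn up with earlier results of these libraries known. In HepG2 cells 78 of them passed the filter, and 1 rose and none fell at an adjusted p under 0.05 (edgeR), while 11 were higher and 6 lower at the study's thresholds, which is 14.1% and 7.69% of those tested, beside 11.3% and 10.9% of all genes. In Ls174 cells 77 passed the filter, none rose and 3 fell, while 2 were higher and 23 lower at the study's thresholds, or 2.60% and 29.9%, beside 4.11% and 7.85% of all genes. Their median log2 fold change was 0.08 in HepG2 and -0.40 in Ls174 cells, beside -0.04 and -0.003 over all genes. The number called moved with the control that stood apart. Without it, 8 list genes were called in HepG2 cells (5 higher and 3 lower), or 9.52% of those tested beside 7.74% of all genes. In Ls174 cells 22 were called (2 higher and 20 lower), or 27.8% of those tested beside 8.39% of all genes. Leaving out any other single library of a line left no list gene called in that line, and a replicate block or 1 fit of all 12 libraries left none in Ls174 cells, so that the 4 genes called at the adjusted threshold, COQ10B, CLCN7, CANX and SCNN1A, each depended on the libraries in the fit.

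**Figure D4:**
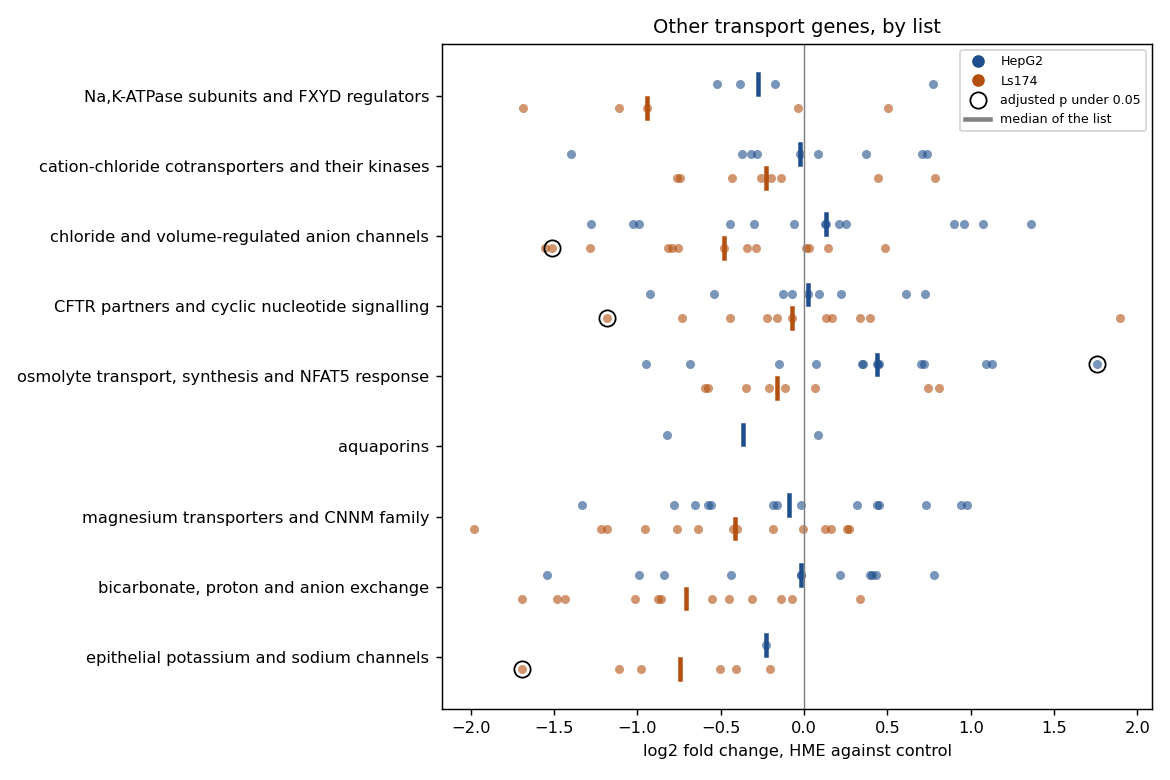
Log2 fold change of HME-treated against control cells (x axis) for the genes of the 9 lists (y axis) that passed the filter, in HepG2 and Ls174 cells, with a bar at the median of each list in each line and a ring around genes with an adjusted p under 0.05. The Ls174 medians of all 8 lists with a tested gene lie below 0, and the 4 ringed genes are COQ10B in HepG2 and CANX, SCNN1A and CLCN7 in Ls174 cells.

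The pump is built from alpha, beta and FXYD subunits. ATP1B3, another beta subunit, had a log2 fold change of -1.11 ± 0.35 in Ls174 cells, which was -0.58 without control 1, with adjusted p values of 0.215 and 0.0383 (edgeR). Of 15 genes for pump subunits and FXYD regulators, 5 passed the filter in Ls174 cells. At the study's thresholds 3 of them were lower, beside 7.85% of all genes. In HepG2 cells 4 passed the filter and 1 was higher, beside 11.3% of all genes.

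Among the cation-chloride cotransporters and their WNK-SPAK kinases, the relatives of SLC12A2, 9 of 15 genes passed the filter in HepG2 and 8 in Ls174 cells, and none was called at an adjusted p under 0.05. WNK2, a kinase gene, was lower in both lines at the study's thresholds, with log2 fold changes of -1.39 ± 0.34 and -0.76 ± 0.28 and no overlap between groups. Without control 2 the HepG2 value of WNK2 was -1.20 with an adjusted p of 0.0385, against 0.059 with it (edgeR). SLC12A7, a potassium-chloride cotransporter, was measured at 38.8 ± 8.07 CPM in untreated and 23.2 ± 10.3 CPM in treated Ls174 cells, with overlapping libraries. Its level in untreated Ls174 cells lay far below the 697 CPM of SLC12A2.

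Of 22 chloride and volume-regulated anion channel genes, CLCN7, a lysosomal chloride-proton exchanger, fell in Ls174 cells from 24.1, 24.2 and 25.6 CPM to 7.65, 7.47 and 10.8 CPM, a log2 fold change of -1.51 ± 0.28 (adjusted p = 0.0468 by edgeR). LRRC8A, the obligatory subunit of the volume-regulated anion channel, was at 32.8, 12.5 and 27.5 CPM in untreated and 59.8, 58.3 and 68.5 CPM in treated HepG2 cells. Its groups were separate, with a log2 fold change of 1.36 ± 0.36 (adjusted p = 0.0716), or 1.11 (adjusted p = 0.0267) without control 2, and its partner LRRC8E had 0.90 ± 0.35 (adjusted p = 0.179, all by edgeR). At the study's thresholds, 3 of 14 tested genes of this list were higher and 1 lower in HepG2 cells, beside 11.3% and 10.9% of all genes. In Ls174 cells 4 of 13 were lower, beside 7.85% of all genes.

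Of 13 genes for partners of CFTR and cyclic nucleotide signalling, CANX, which encodes the chaperone calnexin, fell in Ls174 cells from 331, 410.4 and 373 CPM to 157, 157 and 181 CPM (log2 fold change -1.18 ± 0.19, adjusted p = 0.0344 by edgeR). PDZK1, a scaffold protein of apical transporters, was at 0, 3.72 and 1.79 CPM in untreated and 8.02, 7.11 and 7.23 CPM in treated Ls174 cells, and its log2 fold change was 1.90 ± 0.74 there and -0.92 ± 0.39 in HepG2 cells, neither of which passed the adjusted threshold. Without control 2 the HepG2 value was -1.18 with an adjusted p of 0.0333 (edgeR). CFTR itself was at or near the floor in all groups but untreated Ls174 cells.

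Osmolyte carriers, enzymes of osmolyte synthesis and other genes of the NFAT5 response had the highest list median in HepG2 cells, 0.44 over the 14 of 17 genes tested, beside -0.04 over all genes. In that list 4 were higher and 1 was lower at the study's thresholds, beside 11.3% and 10.9% of all genes. COQ10B rose at an adjusted p of 0.0252 (edgeR), from 33.9, 18.7 and 32.3 CPM to 121, 89.1 and 74.5 CPM. Its log2 fold change was 1.76 ± 0.34. COQ10B encodes a coenzyme Q-binding protein of mitochondria and does not itself carry or make an osmolyte. IMPA1, which frees myo-inositol from its phosphate, had a HepG2 log2 fold change of 1.13 ± 0.41 (adjusted p = 0.15 by edgeR). For SLC38A2, a carrier of neutral amino acids, it was 0.72 ± 0.31 (adjusted p = 0.205 by edgeR). The lower gene was CDO1, at -0.95 ± 0.37 without overlap (adjusted p = 0.174 by edgeR). ISYNA1, an enzyme of osmolyte synthesis, was at -0.68 ± 0.42 (adjusted p = 0.365 by edgeR). SLC38A2 was lower with HME in Ls174 cells, by a log2 fold change of -0.59 ± 0.19, so that its groups too lay apart in opposite order, and the difference between the lines was 1.29 ± 0.37 (adjusted p = 0.144 by edgeR). In Ls174 cells the adjusted p of SLC38A2 was 0.236, or 0.0446 without control 1 (edgeR). NFAT5 itself was at 59.4 ± 24.97 CPM without and 75.2 ± 16.0 CPM with HME in HepG2 cells and at 42.5 ± 2.01 and 28.7 ± 3.17 CPM in Ls174 cells. AKR1B1, which makes sorbitol, was at 263 ± 160.0 and 362 ± 24.7 CPM in HepG2 and at 101 ± 54.9 and 106 ± 9.74 CPM in Ls174 cells, with wide control spreads. The betaine carrier SLC6A12 was detected in HepG2 cells (14.3 ± 0.620 and 18.0 ± 10.0 CPM) and at no more than 1 count in either Ls174 group.

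Among 12 other aquaporins, 2 passed the filter in HepG2 cells and none in Ls174 cells. AQP11 stood at 15.6 ± 4.68 CPM without and 8.74 ± 1.38 CPM with HME in HepG2 cells, a log2 fold change of -0.82 ± 0.37, and AQP8 at 4.78 ± 2.54 and 4.89 ± 1.95 CPM. Neither was past the study's thresholds, and both lay below the 131 ± 35.2 CPM of AQP3 in treated HepG2 cells. In untreated HepG2 cells the mean of AQP11 was above the 8.79 ± 3.77 CPM of AQP3, with overlapping ranges.

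In the list of magnesium transporters and CNNM proteins, the other CNNM genes did not share the pattern of CNNM4 in HepG2 cells. CNNM1, CNNM2 and CNNM3 had HepG2 log2 fold changes of -0.78 ± 0.51, -0.66 ± 0.38 and -0.16 ± 0.34, beside the 3.30 of CNNM4. PTP4A1, a phosphatase that binds CNNM proteins, was at 847, 527 and 1134 CPM without and 1707, 1406 and 1628 CPM with HME in HepG2 cells (log2 fold change 0.94 ± 0.35, adjusted p = 0.159 by edgeR). In Ls174 cells 6 of 14 tested genes of this list were lower at the study's thresholds, beside 7.85% of all genes. Among them were TRPM7, a magnesium channel, with -1.22 ± 0.32, CNNM3 with -0.95 ± 0.29 and MMGT1 with -1.98 ± 0.66. The value of MMGT1 rested on control 1, at 374 CPM beside 69.5 and 68.6 CPM, and was -0.66 without it. None of the list was called at an adjusted p under 0.05 in either line, while without control 1 TRPM7 and CNNM3 were, at -0.84 and -0.96 (adjusted p = 0.0209 and 0.028 by edgeR).

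Bicarbonate, proton and anion exchangers are the relatives of SLC4A4. Their median log2 fold change was -0.71 over 12 tested genes in Ls174 cells and -0.02 over 11 in HepG2 cells. At the study's thresholds 4 were lower in Ls174 cells, beside 7.85% of all genes. In HepG2 cells 1 was higher and 2 were lower, beside 11.3% and 10.9% of all genes. SLC26A2, a sulfate carrier, was lower in both lines without overlap, with log2 fold changes of -1.54 ± 0.38 in HepG2 and -1.69 ± 0.40 in Ls174 cells (adjusted p = 0.059 and 0.103 by edgeR). Without the control that stood apart these were -1.54 and -1.22 (adjusted p = 0.0373 and 0.00947 by edgeR). SLC4A7, a sodium-bicarbonate cotransporter, was expressed where SLC4A4 had no counts, at 30.5 ± 9.64 and 52.1 ± 6.10 CPM in untreated and treated HepG2 cells and at 39.0 ± 13.6 and 28.8 ± 3.04 CPM in Ls174 cells. Its HepG2 log2 fold change was 0.78 ± 0.34 with an adjusted p of 0.22, and 1.07 with an adjusted p of 0.0448 without control 2 (edgeR). CA9, a carbonic anhydrase at the cell surface, had a log2 fold change of -1.43 ± 0.29 in Ls174 cells (adjusted p = 0.067 by edgeR), or -1.24 without control 1 (adjusted p = 0.00357).

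Epithelial potassium and sodium channels were measurable mainly in Ls174 cells, where 6 of 16 genes passed the filter, with a median log2 fold change of -0.74. SCNN1A, the alpha subunit of the epithelial sodium channel, fell from 160.3, 86.3 and 81.4 CPM to 32.4, 34.5 and 34.8 CPM (log2 fold change -1.69 ± 0.30, adjusted p = 0.0392 by edgeR), and without control 1 the value was -1.30. KCNQ1 and KCNN4, basolateral potassium channels that accompany chloride secretion, had log2 fold changes of -0.98 ± 0.24 and -1.11 ± 0.33 (adjusted p = 0.109 and 0.197 by edgeR), or -0.79 and -0.82 without control 1 (adjusted p = 0.0102 and 0.0497). KCNQ1 had 0 counts in all HepG2 libraries.

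For the difference between the lines in the response to HME, 93 list genes were tested. None passed an adjusted p under 0.05 in edgeR, beside 0.644% of all genes, and DESeq2 called 3. An unadjusted p under 0.05 was found for 16, beside 1718 of all 13040 genes. At the study's thresholds, 14 (15.05%) were more positive in HepG2 cells and 2 (2.15%) more negative, beside 7.42% and 5.75% of all genes. The median difference over the list genes was 0.54, beside -0.04 over all genes. Between the untreated lines, 45 of the 93 list genes were called (28 higher in HepG2 and 17 in Ls174 cells), or 48.4% beside 35.5% of all genes.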

How the data were processed

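RNA of 12 samples (HepG2 and Ls174 cells, control and HME, 3 biological replicates each) was measured. The authors prepared QuantSeq 3′ libraries, sequenced them on an Ion Proton, aligned reads with Hisat2 to hg19 and used metaseqR2, and the deposited files hold raw counts per 3′ region. How strand and multiply aligned reads were treated is not given in the sources used here. Counts were summed over the regions of each gene. No row lacked a gene name. TMM scaling, filterByExpr and the quasi-likelihood test of edgeR 4.0.16 (R 4.3.3) were fitted to each line, and to all 12 libraries for the interaction and the untreated lines, and p values were adjusted by Benjamini-Hochberg over all genes tested. The SE is the log2 fold change over the root of its F statistic. Log2 CPM used a prior count of 2. Shares of regions were compared by exact permutation (Python 3.11.15, numpy 2.4.6). The procedure was tested on simulated data.

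The genes and the lists were chosen with earlier results of these data known. List genes were named if among the 3 smallest p values of their list and line at the study's thresholds, or called in a line or the interaction, up to 30 genes. Relatives and overlapping genes named beside them were chosen after values were seen, and some genes that these rules name are not reported here. Promoter sequences are from RefSeq, exon annotation from GENCODE lifted to GRCh37. Alternatives were DESeq2 1.42.0, other scalings and filters, a replicate block, other sets of libraries in the fit, dropping shared regions and leaving out each library.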

Additional observations from a re-analysis of the deposited data

Results flagged for a closer look

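SLC5A3, the myo-inositol carrier, had every HME-treated HepG2 library above the HepG2 controls and every HME-treated Ls174 library below the Ls174 controls. The difference between the lines in log2 fold change was 3.94. The fit over all genes called this difference, but the gene was chosen with both comparisons known, so that the value is a description and was not tested in libraries outside that choice. Over 19 alternatives the value lay between 3.69 and 4.17. The SLC6A6 and CNNM4 groups lay apart in HepG2 cells, higher with HME, and overlapped in Ls174 cells through control 1. Without control 1, their Ls174 log2 fold changes were -1.07 and -1.01. With all libraries kept, no other gene of the set had separate groups of opposite order in the 2 lines. SLC38A2, which is not of the set, did, and its difference of 1.29 missed the adjusted threshold of edgeR. MRPS6, which shares the start site and encloses SLC5A3, had a difference of 1.62 with an adjusted p of 0.124 (edgeR).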

How the results depend on the processing

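Each fitted log2 fold change of the 6 transporter genes kept its sign in all 4 comparisons under every alternative that could fit it. Counts of calls moved more. With DESeq2, 4 list genes were called in HepG2 cells (1 in edgeR), 10 in Ls174 cells (3) and 3 for the difference between the lines (0), and with no filter beyond 1 count these were 6, 13 and 2. Upper-quartile scaling gave 2 list genes in HepG2 cells, and 1 fit of all 12 libraries gave 4 in HepG2 and 0 in Ls174 cells. Requiring 10 counts in every library, which drops genes at a low level in any group, left 2 list genes in HepG2 cells, 15 between the untreated lines (45), 1 of the 8 transporter genes in HepG2 cells (3) and 2 for the difference between the lines (4). A fit of the 6 control libraries alone called 2 transporter genes between the untreated lines (4).

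Leaving out 1 library at a time gave between 0 and 8 list genes in HepG2 cells, between 0 and 22 in Ls174 cells and between 0 and 1 for the difference between the lines. It gave between 0 and 6 transporter genes in Ls174 cells and between 2 and 5 for the difference between the lines. The highest counts in each line came without HepG2 control 2 and without Ls174 control 1. The SLC6A6 share, HME minus control, lay between -8.03 and -4.85 percentage points, with p between 0.01 and 0.163 (exact permutation test), and it had no value at a minimum of 30 counts, which no treated Ls174 library reached. The cause of these moves was not tested beyond the number of genes or libraries that an alternative leaves.

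With the replicate number as a replicate block, 0 transporter genes and 0 list genes were called in Ls174 cells and 2 transporter genes for the difference between the lines. It left 3 transporter genes and 1 list gene in HepG2 cells. Deviations of same-numbered HME and control libraries from their group means correlated between -0.167 and 0.0884 over genes, and not every library correlated best with its own number, so that the numbers are not shown to pair samples. Between 17 and 81 counts stood behind each SLC6A6 share, and CFTR and SLC4A4 were below what this depth can compare.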
